A study of Homo sapiens with 13 samples.

Results

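The ZNF genes, human zinc finger protein genes whose symbol is ZNF followed by a number, were followed through pull-downs of mRNA with 5 biotinylated miRNA duplexes. All probes of the normalized array table with such a symbol were taken, which gave 242 of 12007 probes and 210 of 8380 genes. All 210 genes are protein-coding in RefSeq, and 32 of them had 2 probes. A further probe that carried several symbols was left out. The cells were HEK293T, an established line of human embryonic kidney origin, which received 200 pmol of one synthetic duplex, and 24 h later the miRNA with its bound mRNA was captured on streptavidin beads. The duplexes miR-17-5p, its isomiR (called miR-17-5p-iso) and miR-27a had 3 libraries each, while miR-23b had 2, as had miR-182-iso. No mock-transfected library is among these 13, so each duplex was compared with the duplexes of the other miRNA families, called the unrelated pull-downs. All libraries are captured RNA, so the values do not separate how much of an mRNA was bound from how much of it the cells held.

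Most ZNF proteins hold arrays of C2H2 zinc fingers, in which a zinc ion folds a short loop that reads a few bases of DNA. Many of them also carry a KRAB domain, which recruits the co-repressor TRIM28 and with it the histone methyltransferase SETDB1, and this group is best known for silencing transposable elements. Many of the KRAB genes arose by tandem duplication and lie in clusters on chromosome 19. A miRNA guides an Argonaute protein to mRNAs, mostly by pairing of its seed (bases 2 to 8) with the 3′ UTR, and an isomiR that starts at another base has another seed.

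The transfected strands are shown because the 5 pull-downs differ in nothing else that the labels give. The seed is in capitals, each strand runs 5′ to 3′, and the strands were read from the study's list of synthetic duplexes.
miR-17-5p: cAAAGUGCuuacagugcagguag
miR-17-5p-iso: uCAAAGUGcuuacagugcaggua
miR-23b: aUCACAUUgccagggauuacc
miR-27a: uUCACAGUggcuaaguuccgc
miR-182-iso: uGGCAAUGguagaacucacacu
The miR-17-5p and miR-27a strands were the same as the mature sequences of RefSeq (GRCh38.p14), which lie at chr13:91350618-91350640 (+ strand) and chr19:13836447-13836467 (- strand). The miR-17-5p-iso strand started 1 base before the mature miR-17-5p and ended 1 base before its end. The miR-182-iso strand started 2 bases after the mature miR-182-5p (chr7:129770447-129770470, - strand), and the miR-23b strand was 2 bases shorter at its 3′ end than the mature miR-23b-3p (chr9:95085265-95085287, + strand). Perfect seed matches in mRNA are GCACTTT for miR-17-5p, CACTTTG for miR-17-5p-iso, AATGTGA for miR-23b, ACTGTGA for miR-27a and CATTGCC for miR-182-iso. Transcript sequences were not used here, so which ZNF mRNAs hold them was not examined.

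The values are on a log2-like scale that the authors made from the array signals, and they ran from 7.42 to 15.5 with library medians of 8.53 to 8.60. The table holds only probes that the authors had detected in mock-transfected controls. Of the markers of embryonic kidney lines, VIM had 2 probes, the brighter of which averaged 11.75, and NEFM averaged 8.41. PAX2, LHX1 and EYA1 had no probe in the table, nor did PTPRC, HBB, ALB, PECAM1 and KRT5 of other cell types, and COL1A1 was near the lowest values at 7.51. Calls were most frequent in miR-182-iso, where 17.0% of all probes were higher and 15.4% lower, and in miR-27a, with 15.2% and 15.1%. The miR-182-iso libraries enter the comparison of every other duplex with the unrelated pull-downs, so the counts, and the members that moved most in miR-182-iso, are also given without them.

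Most ZNF probes were dim, with a few bright exceptions, though the brightness of different probes does not rank their mRNAs. Averaged over 13 libraries, the median ZNF probe was at 8.18, against 8.59 for all probes, and 155 of the 242 ZNF probes (64.0%) lay under the median of the table. The lowest averaged 7.48 and the highest, a probe of the KRAB gene ZNF430, 13.42. The ZNF probes also varied less, with a median SD over the libraries of 0.24, against 0.31 for all probes, and a median SD within a pull-down of 0.18, against 0.21. On this scale differences of dim probes are compressed.

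A probe was called when limma's adjusted p (Benjamini-Hochberg over all 12007 probes) was under 0.05, and the text gives differences in log2 units with their standard errors (SE). Most genes named below were picked because they were called and showed no overlap between groups. Their lack of overlap is thus no further support. In miR-17-5p, 10 ZNF probes (4.13%) were higher, beside 5.34% of all probes, and 6 (2.48%) lower, beside 4.51%. In miR-17-5p-iso, 13 (5.37%) were higher, beside 5.11%, and 5 (2.07%) lower, beside 2.74%. The shares in miR-17-5p-iso lie close to those of the whole table, and both shares in miR-17-5p lie under them.

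In miR-23b, 19 ZNF probes (7.85%) were higher, beside 5.91% of all probes, and 4 (1.65%) were lower, beside 3.00%. In miR-27a, 38 (15.7%) were higher, beside 15.2%, and 18 (7.44%) lower, beside 15.1%. In miR-182-iso, 19 (7.85%) were higher, beside 17.0%, and 44 (18.2%) lower, beside 15.4%. The ZNF probes called were thus more often higher than lower in miR-23b and miR-27a and more often lower than higher in miR-182-iso. Over all probes the 2 directions were near balance in miR-27a and miR-182-iso. In miR-23b, higher calls outnumbered lower ones over all probes too (5.91% and 3.00%). The median difference of the ZNF probes was -0.01 in miR-17-5p, -0.01 in miR-17-5p-iso, 0.00 in miR-23b, 0.00 in miR-27a and -0.06 in miR-182-iso, beside -0.02, -0.03, -0.02, -0.03 and 0.00 over all probes. These 5 comparisons share libraries, so they are not independent of each other.

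Without the 2 miR-182-iso libraries the counts moved for the ZNF probes and for the table alike. In miR-17-5p, 14 ZNF probes (5.79%) were then higher, beside 7.85% of all probes, and 24 (9.92%) lower, beside 8.59%. In miR-17-5p-iso, 12 (4.96%) were higher, beside 5.91%, and 17 (7.02%) lower, beside 5.26%. The calls in miR-23b and miR-27a became fewer. In miR-23b, 9 (3.72%) were higher, beside 3.15%, and 3 (1.24%) lower, beside 1.42%, and in miR-27a 12 (4.96%) were higher, beside 7.04%, and 8 (3.31%) lower, beside 6.51%. Leaving out miR-182-iso replicate 2 alone gave 8 higher in miR-23b. Of all 242 ZNF probes, 142 were called in none of the 5 comparisons.

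**Figure D1:**
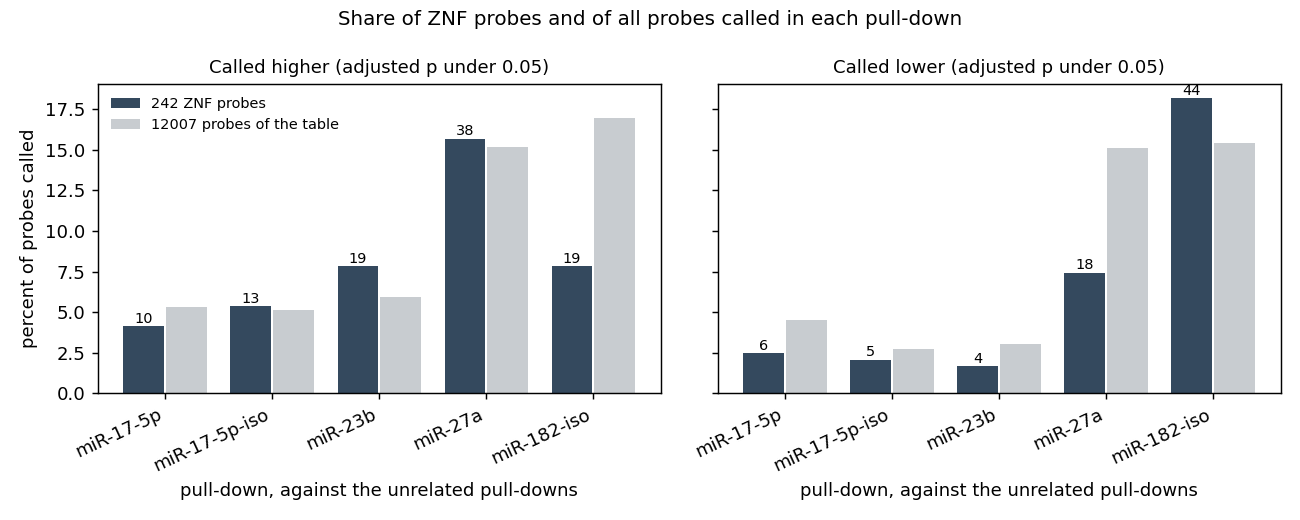
Percent of probes called higher (left) and lower (right) at an adjusted p under 0.05 in each pull-down against the unrelated pull-downs, for the 242 ZNF probes (dark, with their number) and for all 12007 probes (grey). In miR-182-iso the dark bar is 7.85% against 17.0% for higher and 18.2% against 15.4% for lower.

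The largest ZNF difference of any pull-down was that of ZNF518A in miR-17-5p-iso. ZNF518A, a C2H2 gene on chromosome 10 with no KRAB domain, was at 12.12, 11.28 and 11.65 in the miR-17-5p-iso libraries, against 8.13 to 9.05 (median 8.69) in the 7 unrelated libraries. The groups did not overlap, and the difference was 3.12 (SE 0.16, limma adjusted p = 1.54e-05). In miR-17-5p the same probe was at 8.90, 8.57 and 8.74, within the range of the unrelated libraries, and differed from them by 0.17 (SE 0.16, adjusted p = 0.576). Set directly against its isomiR, miR-17-5p was lower, with a difference of -2.95 (SE 0.19, adjusted p = 0.000205). The 2 strands have the same bases apart from their ends, and ZNF518A was high in all 3 libraries of the strand with the earlier start and in none of the other 10.

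ZNF443, a KRAB gene on chromosome 19, was high with both forms of miR-17-5p. It was at 9.87, 9.72 and 9.91 in miR-17-5p-iso, against 7.53 to 7.87 (median 7.81) in the unrelated libraries, a difference of 2.12 (SE 0.18, limma adjusted p = 0.000169). In miR-17-5p it was at 9.55, 8.52 and 9.31, a difference of 1.41 (SE 0.18, adjusted p = 0.00192). All 6 libraries lay above all 7 unrelated ones, and both calls held in each alternative run for them. The direct difference of miR-17-5p from its isomiR (-0.71) did not pass the test (adjusted p = 0.168).

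ZNF581, a small C2H2 gene next to ZNF580 on chromosome 19, was highest with the canonical strand. It was at 10.79, 10.75 and 11.06 in miR-17-5p, against 9.08 to 9.46 (median 9.24) in the unrelated libraries, a difference of 1.59 (SE 0.10, limma adjusted p = 0.00013). In miR-17-5p-iso it was at 9.93, 9.72 and 9.95, also above all unrelated libraries, with a difference of 0.59 (SE 0.10, adjusted p = 0.00644), which was not called against all other pull-downs, miR-17-5p among them (0.19, adjusted p = 0.319). Between the strands, miR-17-5p was higher by 1.00 (SE 0.12, adjusted p = 0.00668), with no overlap of their libraries.

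ZNF207 and ZNF618 were also higher with no overlap, and the comparisons of both miR-17-5p forms use the same 7 unrelated libraries. ZNF207 (BuGZ) binds the checkpoint protein BUB3 and loads it onto kinetochores. Its brighter probe was at 10.90, 10.82 and 10.92 in miR-17-5p, against 9.93 to 10.24 (median 9.98), a difference of 0.83 (SE 0.10, limma adjusted p = 0.00165), and its other probe gave 0.84 (SE 0.14, adjusted p = 0.00617). In miR-17-5p-iso the brighter probe was 0.48 higher (SE 0.10, adjusted p = 0.0183), at 10.40, 10.79 and 10.42. That call was lost without miR-17-5p-iso replicate 2 (0.36, adjusted p = 0.062), with a trended prior (adjusted p = 0.0517) and against all other pull-downs (0.27, adjusted p = 0.16). ZNF618, on chromosome 9, was at 9.26, 8.95 and 9.26 in miR-17-5p and at 9.48, 9.16 and 9.38 in miR-17-5p-iso, against 8.40 to 8.65 in the unrelated libraries. Its differences were 0.61 (SE 0.10, adjusted p = 0.00543) and 0.79 (SE 0.10, adjusted p = 0.00116).

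Of the other ZNF probes with no overlap, ZNF280C was 0.91 higher in miR-17-5p (SE 0.19, limma adjusted p = 0.0169) and 0.59 without replicate 1 (adjusted p = 0.0154). The KRAB genes ZNF805 and ZNF17 were 1.05 and 0.93 higher in miR-17-5p-iso (adjusted p = 0.00892 and 0.0128). Without miR-17-5p-iso replicate 3, ZNF805 was at 0.86 (adjusted p = 0.0553) and ZNF17 at 0.82 (adjusted p = 0.0772), and without replicate 1 ZNF17 was at 0.81 (adjusted p = 0.0558). ZNF446 (0.57, adjusted p = 0.0132) and ZNF77 (0.63, adjusted p = 0.0268) were dim genes that were higher in miR-17-5p. The call of ZNF77 was lost without any 1 of the miR-23b or miR-182-iso libraries (adjusted p up to 0.0652) and with the replicate block (0.58, adjusted p = 0.0502), and without miR-17-5p replicate 3 the difference was 0.38 (adjusted p = 0.036). Downwards, ZNF189 was at 8.32, 8.76 and 8.33 in miR-17-5p and at 8.50, 8.48 and 8.36 in miR-17-5p-iso, against 8.77 to 9.23 in the unrelated libraries. Its differences were -0.52 (SE 0.12, adjusted p = 0.023) and -0.54 (SE 0.12, adjusted p = 0.0216), and both lost their call without any of several libraries, among them miR-23b replicate 1 (-0.47, adjusted p = 0.0571, and -0.49, adjusted p = 0.0552).

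The direct comparison of both miR-17-5p forms asks whether a strand whose start and end both lie 1 base earlier captures other mRNAs. It called 1 ZNF probe higher (0.413%), beside 0.325% of all probes, and 2 lower (0.826%), beside 0.783%. These were ZNF581 and, lower, ZNF518A and ZNF70. ZNF70, a C2H2 gene on chromosome 22, was at 8.83, 8.81 and 8.77 in miR-17-5p, against 10.08, 9.36 and 9.81 in miR-17-5p-iso, a difference of -0.95 (SE 0.18, limma adjusted p = 0.0377). The 5 libraries of miR-23b and miR-27a held ZNF70 at 9.06 to 9.76, above all 3 miR-17-5p libraries. Its call was lost without any 1 of the miR-23b or miR-27a libraries and without miR-17-5p-iso replicate 1 (-0.78, adjusted p = 0.116) or 3 or miR-17-5p replicate 2 or 3 (adjusted p up to 0.168) and with the replicate block (adjusted p = 0.0526), and the calls of ZNF581 and ZNF518A held without any 1 library.

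**Figure D2:**
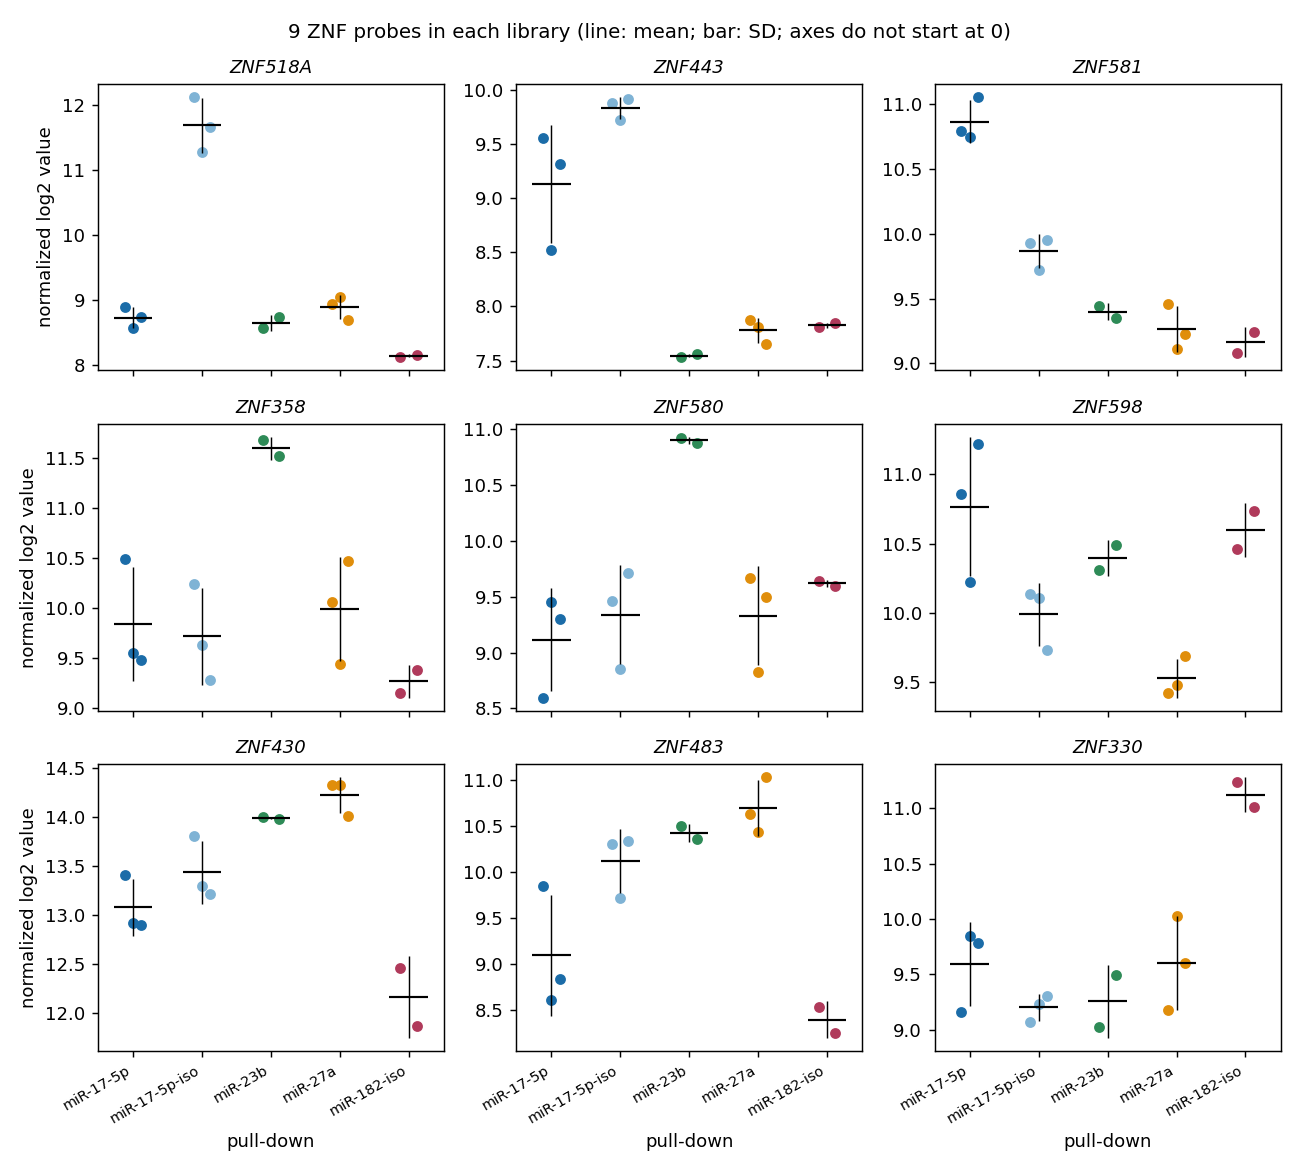
Normalized log2 value of 9 ZNF probes in each of the 13 libraries (points), with the mean (line) and SD (bar) of each pull-down on the x axis, which holds 2 or 3 libraries. ZNF518A stands at 11.28 to 12.12 in miR-17-5p-iso and at 9.05 or less elsewhere.

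In miR-23b the largest differences were those of ZNF358 and ZNF580, 2 C2H2 genes on chromosome 19. ZNF358 was at 11.68 and 11.52 in the miR-23b libraries, against 9.15 to 10.49 (median 9.55) in the 11 unrelated ones, a difference of 1.92 (SE 0.32, limma adjusted p = 0.0105). ZNF580 was at 10.92 and 10.88, against 8.60 to 9.71 (median 9.46), a difference of 1.51 (SE 0.28, adjusted p = 0.0139). Neither overlapped with any unrelated library. ZNF580 and its neighbour ZNF581 are the 194th and 193rd ZNF genes in order along chromosome 19, and ZNF581 was at 9.45 and 9.35 in the miR-23b libraries, within the range of the libraries outside the miR-17-5p forms.

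ZNF385A, known as a modulator of the p53 response, was at 9.08 and 8.72 in miR-23b, against 7.73 to 8.15 (median 7.85), a difference of 1.01 (SE 0.13, limma adjusted p = 0.00404). ZNF384, a transcription factor rearranged in some acute leukaemias, was at 9.15 and 8.88, against 7.93 to 8.78 (median 8.36), a difference of 0.78 (SE 0.13, adjusted p = 0.00871). ZNF512B was at 8.51 and 8.71, against 7.76 to 8.31 (median 7.95), a difference of 0.59 (SE 0.08, adjusted p = 0.00446). ZNF213, a KRAB gene with a SCAN domain, was 0.74 higher (SE 0.15, adjusted p = 0.0196), at 8.96 and 8.47. In all 4 genes both miR-23b libraries lay above each of the 11 others, which was a condition for naming them.

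With 2 libraries, single calls in miR-23b depended on both. Without miR-23b replicate 1, ZNF512B (0.69, limma adjusted p = 0.0331) was the only ZNF probe still called higher, and without replicate 2 it was ZNF385A (1.19, adjusted p = 0.024), while ZNF358 stayed at 1.84 and 2.00 (adjusted p = 0.156 and 0.0857) and ZNF580 at 1.49 and 1.53 (adjusted p = 0.172 and 0.109). Without the miR-182-iso libraries, all 6 of these genes were still called (ZNF358 1.71, adjusted p = 0.0298, and ZNF580 1.62, adjusted p = 0.0222), and ZNF480, a KRAB gene (0.95, adjusted p = 0.0251), was not (0.83, adjusted p = 0.0567). ZNF443 was lower in miR-23b than in the unrelated libraries (-0.82, SE 0.20, adjusted p = 0.0376), where the miR-17-5p forms are among those libraries. At 7.53 and 7.56 it lay just under the other 5 libraries, at 7.65 to 7.87, and the call was lost without either miR-23b library (adjusted p = 0.288 and 0.192) and without several others, both miR-182-iso libraries among them.

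miR-23b and miR-27a come from paralogous miRNA clusters, and their seeds both open with UCACA. In the direct comparison, 6 ZNF probes were higher in miR-23b (2.48%), beside 3.91% of all probes, and 4 were lower (1.65%), beside 3.15%. The 6 were the genes just named. ZNF358 was at 11.68 and 11.52 in miR-23b, against 10.06, 9.44 and 10.47 in miR-27a, a difference of 1.61 (SE 0.38, limma adjusted p = 0.0342). ZNF580 was at 10.92 and 10.88, against 9.66, 8.83 and 9.50, a difference of 1.57 (SE 0.32, adjusted p = 0.0199).

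ZNF213 differed by 1.02 (SE 0.18, limma adjusted p = 0.0104), ZNF385A by 0.89 (SE 0.15, adjusted p = 0.0104), ZNF384 by 0.86 (SE 0.15, adjusted p = 0.01) and ZNF512B by 0.71 (SE 0.10, adjusted p = 0.00302), all with no overlap. Lower in miR-23b were ZNF329 (-0.995, SE 0.22, adjusted p = 0.0275), at 7.96 and 8.32, against 9.07, 9.25 and 9.08 in miR-27a, and ZNF131, ZNF561 and ZNF594 (-0.56, -0.56 and -0.35). ZNF512B was the only ZNF call that held without any 1 library. Without miR-23b replicate 1 the other 5 higher calls were lost (ZNF213 0.78, adjusted p = 0.116, and ZNF358 1.53, adjusted p = 0.211), and so were all 4 lower ones (ZNF329 -0.82, adjusted p = 0.223).

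In miR-27a the ZNF probes called higher were led by bright probes. ZNF652, a repressor that acts with the co-repressor CBFA2T3, was at 13.22, 12.72 and 12.40 in miR-27a, against 10.17 to 12.71 in the 10 unrelated libraries, so the groups overlapped. Its difference was 1.32 (limma adjusted p = 0.0046), and without the miR-182-iso libraries 0.88 (adjusted p = 0.043). ZNF430 was at 14.33, 14.33 and 14.01, against 11.86 to 14.00 (median 13.25), with no overlap, a difference of 1.09 (SE 0.17, adjusted p = 0.00246), and 0.60 without the miR-182-iso libraries (adjusted p = 0.043). ZNF483, a KRAB gene with a SCAN domain, was at 10.62, 10.43 and 11.03, a difference of 1.22 (adjusted p = 0.0067), and lost its call without the miR-182-iso libraries (0.68, adjusted p = 0.13).

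Other members higher in miR-27a were still called without those libraries. ZNF561, a KRAB gene, was at 8.25 to 8.41 in miR-27a, against 7.56 to 7.87 (median 7.69), a difference of 0.64 (SE 0.08, limma adjusted p = 0.000731), and 0.60 without the miR-182-iso libraries (adjusted p = 0.0035). ZNF131, which has a BTB domain, was 0.64 higher (SE 0.11, adjusted p = 0.00323), ZNF248 0.58 (SE 0.09, adjusted p = 0.00184) and ZNF22 0.58 (SE 0.10, adjusted p = 0.0038). These 4 calls held in every alternative run for them, with no overlap of the libraries. The filter on dim probes did not keep ZNF561, whose libraries all lay at 8.41 or less.

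Of the members lower in miR-27a, ZNF598 was at 9.42, 9.48 and 9.69, against 9.73 to 11.22 (median 10.38), a difference of -0.93 (SE 0.19, limma adjusted p = 0.00565). ZNF598 is the ubiquitin ligase that marks collided ribosomes. ZNF622, a factor of large ribosomal subunit maturation, was at 8.57 to 8.82, against 9.03 to 9.84 (median 9.35), a difference of -0.67 (SE 0.16, adjusted p = 0.0119). Both calls held in every alternative. ZNF296 was at 8.14, 7.72 and 7.89, against 8.29 to 9.63 (median 8.61), a difference of -0.99 (SE 0.19, adjusted p = 0.0053), which was -0.70 without the miR-182-iso libraries (adjusted p = 0.0558).

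ZNF786, a KRAB gene on chromosome 7, was named because the study had examined its transcript for miR-17-5p sites. The study reported a probe of this gene as enriched over mock-transfected controls in the pull-down of that miRNA. From sequencing of the captured RNA, the study also described an extended untranslated region that contained such sites. The comparison here is with other pull-downs and holds no mock-transfected library, so that enrichment was not tested. ZNF786 was at 9.48, 9.99 and 9.49 in miR-17-5p and at 9.71, 9.17 and 9.06 in miR-17-5p-iso, against 8.51 to 10.62 (median 9.98) in the unrelated libraries. Neither difference passed the test (-0.11, SE 0.22, limma adjusted p = 0.811, and -0.45, SE 0.22, adjusted p = 0.248). Without the miR-182-iso libraries these were -0.54 (adjusted p = 0.103) and -0.88 (adjusted p = 0.0283). In miR-27a it was 0.87 higher (SE 0.21, adjusted p = 0.0147), at 10.62, 10.44 and 9.97, with overlap, and 0.58 without the miR-182-iso libraries (adjusted p = 0.0802). Without miR-27a replicate 1 it was 0.73 higher (adjusted p = 0.0717) and without replicate 2 0.82 (adjusted p = 0.0537). ZNF786 was also called lower in miR-182-iso. That call did not hold without miR-182-iso replicate 2, where the difference was -0.65.

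In miR-182-iso ZNF members of both directions lay apart from all other libraries. Those called lower were led by ZNF483, at 8.53 and 8.25 in miR-182-iso, against 8.61 to 11.03 (median 10.33) in the 11 unrelated libraries, a difference of -1.85 (SE 0.29, limma adjusted p = 0.00147). ZNF430 was at 12.46 and 11.86, against 12.90 to 14.33 (median 13.80), a difference of -1.66 (SE 0.20, adjusted p = 0.000445). ZNF652 was at 10.97 and 10.17, against 11.09 to 13.22 (median 12.09), a difference of -1.63 (SE 0.29, adjusted p = 0.00244). All 3 lay under every other library, and ZNF652 lost its call without miR-182-iso replicate 2 (-1.22, adjusted p = 0.0663). That library was the lower of the pair in all 3.

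ZNF518A was also lower in miR-182-iso, at 8.13 and 8.16, a difference of -1.10 (SE 0.18, limma adjusted p = 0.00177). The miR-17-5p-iso libraries, where it was high, are among those it was set against, and the other 8 libraries held it at 8.57 to 9.05, above both. ZNF706, a gene for a small zinc finger protein, was lower by both of its probes (-1.03 and -0.999).

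The members called higher in miR-182-iso were led by ZNF330, which encodes the nucleolar protein NOA36. It was at 11.23 and 11.01, against 9.02 to 10.03 (median 9.31), a difference of 1.70 (SE 0.23, limma adjusted p = 0.0007). Its second probe was at 9.40 and 9.54, a difference of 0.29, within the range of the other libraries (8.73 to 9.75). ZNF296 was at 9.34 and 9.63, against 7.72 to 9.27 (median 8.42), a difference of 1.11 (SE 0.22, adjusted p = 0.00477), and lost its call without miR-182-iso replicate 2 (0.96, adjusted p = 0.089).

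ZNF589, ZNF579, ZNF45 and ZNF585A were dim members, with means of 7.63 to 8.27 over the 13 libraries, that were higher by 0.63 to 0.77 (limma adjusted p of 0.00109 to 0.00337). Of these, ZNF579 and ZNF585A held in every alternative run for them, and ZNF589 and ZNF45 did not, at 0.71 and 0.50 without miR-182-iso replicate 2. The filter on dim probes leaves these members out, and their comparison cannot be made without both miR-182-iso libraries. ZNF503, a developmental repressor and the brightest member called higher, was at 12.94 and 12.82 in miR-182-iso, against 11.57 to 12.83 in the others, with overlap (0.89). Leaving out miR-182-iso replicate 2 left 4 ZNF probes called higher and 11 lower, and leaving out replicate 1 left 15 and 25.

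**Figure D3:**
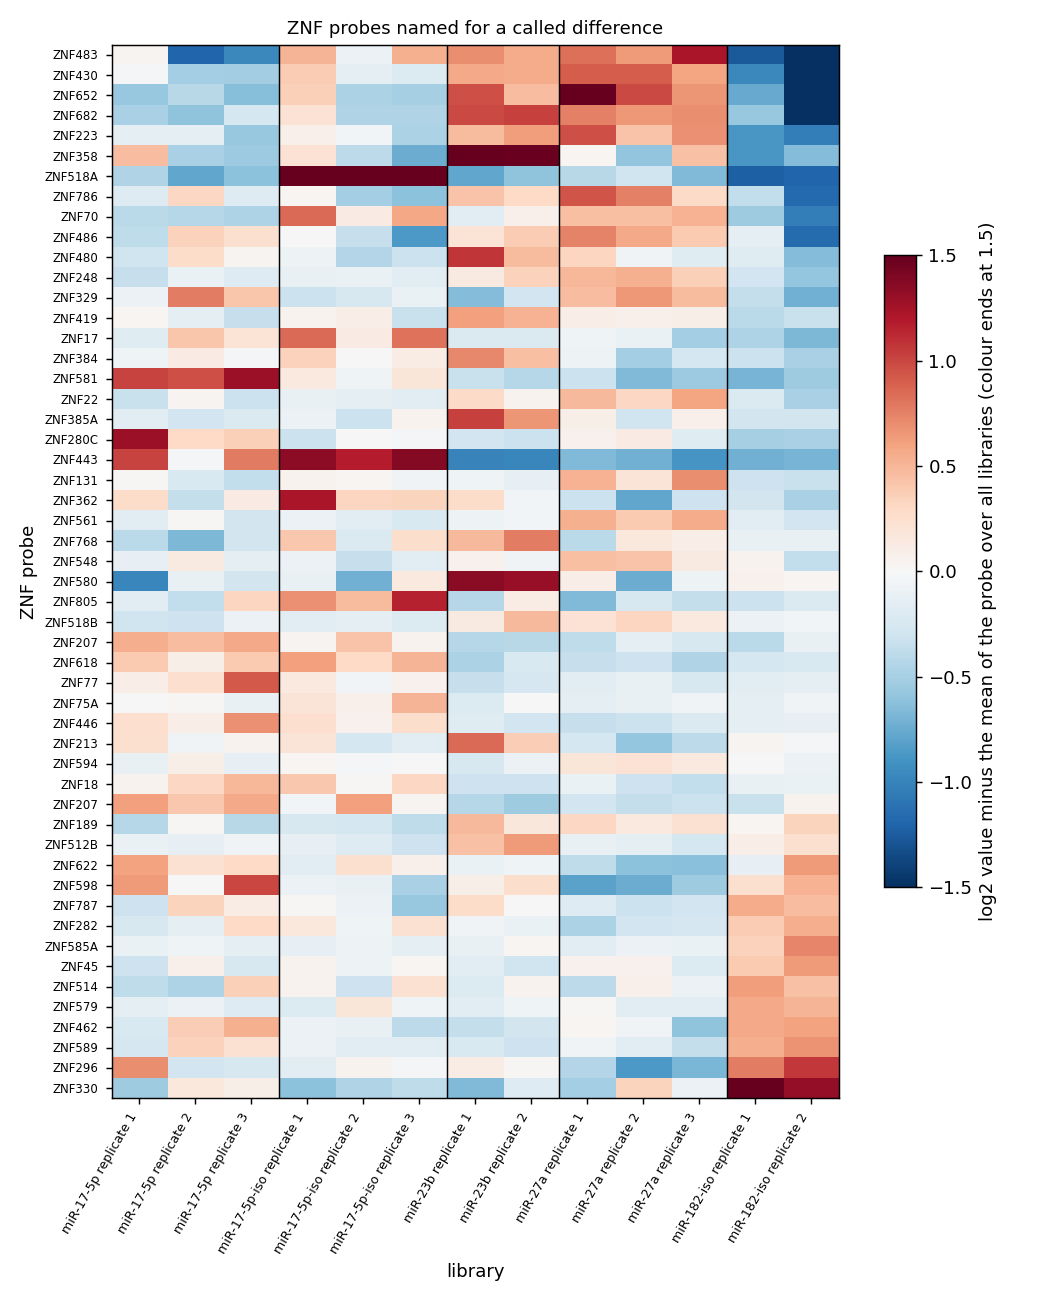
Value of each of the 52 ZNF probes named for a called difference (rows, from the lowest to the highest difference in miR-182-iso) in each of the 13 libraries (columns), as the log2 value minus the mean of the probe. Colours end at 1.5 in either direction, ZNF207 has 2 rows, and 37 of the 52 probes have a difference under 0 in miR-182-iso. The top 5 rows, ZNF483 to ZNF223, are red in the miR-27a columns and blue in the miR-182-iso columns.

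A group of bright ZNF probes moved together over the libraries. ZNF430 was the brightest member, and 7 other ZNF probes (2.90%) had a Pearson r over 0.9 with it over the 13 libraries, beside 163 of all other probes (1.36%). The 7 were ZNF69, ZNF14, ZNF652, ZNF223, ZNF394, ZNF682 and ZNF483, all but ZNF652 KRAB genes, and 5 of the 8 lie on chromosome 19. They averaged 9.44 to 13.42, and any pair of them had an r of 0.82 to 0.97. Over the 11 libraries without miR-182-iso the pairs had an r of 0.70 to 0.97. The group was formed after its values were seen, by likeness to ZNF430 over these same libraries. Its high r and its shared calls follow from that choice. The libraries fall into the 5 pull-downs, and no test was made on the group.

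Within the group the 5 pull-downs stood in much the same order. ZNF69 was at 10.86 and 10.03 in miR-182-iso, at 11.48, 10.64 and 11.08 in miR-17-5p, at 11.77, 11.50 and 11.62 in miR-17-5p-iso, at 12.21 and 12.31 in miR-23b and at 12.49, 12.43 and 12.21 in miR-27a. ZNF14 was at 12.40 and 11.86 in miR-182-iso, at 12.34 to 12.95 in miR-17-5p, at 12.71 to 13.32 in miR-17-5p-iso, at 13.64 and 13.79 in miR-23b and at 13.64 to 13.80 in miR-27a. Both had their lowest value in miR-182-iso replicate 2, and the miR-23b and miR-27a values overlapped. Against the unrelated pull-downs, all 8 probes were called lower in miR-182-iso (-1.85 to -1.19) and higher in miR-27a (0.78 to 1.32), 6 were called higher in miR-23b (0.71 to 1.24 over the 8), 1 was called lower in miR-17-5p and none was called in miR-17-5p-iso.

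Since the comparisons share libraries, these calls are not separate evidence. Without the miR-182-iso libraries, ZNF430, ZNF69 and ZNF652 were still called higher in miR-27a and ZNF682 in miR-23b (0.83, limma adjusted p = 0.0299), and all 8 were called lower in miR-17-5p, from -0.90 for ZNF223 (adjusted p = 0.0105) to -1.47 for ZNF483 (adjusted p = 0.0109). In miR-17-5p-iso all but ZNF483 were then called lower too, from -0.67 for ZNF430 (adjusted p = 0.0387) to -1.09 for ZNF652 (adjusted p = 0.028). ZNF483 was at -0.45 there (adjusted p = 0.349).

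The same profile was shared by 156 probes of other genes or with no gene symbol. It includes IL10, an immune cytokine (r 0.99, mean 11.89), MCM8, a helicase of DNA repair (r 0.99), and GJC1, a gap junction protein (r 0.97, mean 14.07). Of the 156, all were called lower in miR-182-iso, 154 higher in miR-27a and 50 higher in miR-23b. Over all probes these shares were 15.4%, 15.2% and 5.91%. The 156 were also picked by their r with ZNF430 over these same libraries, so their shared calls follow from that choice. For 3 of the ZNF genes a second probe was in the table, and each was dim. The second probe of ZNF430 averaged 7.69 (r 0.29 with the bright one), that of ZNF14 7.63 (r 0.61) and that of ZNF394 7.52 (r -0.11), and none of the 3 was called in miR-182-iso, miR-27a or miR-17-5p. That of ZNF14 was called higher in miR-23b (0.39, limma adjusted p = 0.0292) and that of ZNF430 in miR-17-5p-iso (0.28, adjusted p = 0.0339). Whether the bright probes also hybridize to RNA of other genes was not tested, since probe sequences were not used here.

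Without the 8 probes, the ZNF counts were 19 higher and 36 lower in miR-182-iso, 30 higher and 18 lower in miR-27a and 13 higher and 4 lower in miR-23b, of 234. The shares over all probes were 17.0% and 15.4% in miR-182-iso, 15.2% and 15.1% in miR-27a and 5.91% and 3.00% in miR-23b. Calls were also set against level. With the table cut into 4 equal parts by mean level, of the 30 ZNF probes in the brightest part, 17 (56.7%) were lower in miR-182-iso, beside 25.1% of all probes in that part, and 15 (50.0%) higher in miR-27a, beside 22.3%. The group of 8 supplied 7 of these 30, and without them 10 of 23 (43.5%) were lower in miR-182-iso and 8 (34.8%) higher in miR-27a. Of the 88 ZNF probes in the dimmest part, 3 (3.41%) were lower in miR-182-iso, beside 1.63%, and 4 (4.55%) higher in miR-27a, beside 3.63%. The ZNF shares called higher in miR-182-iso were 6.82%, 8.96%, 10.5% and 3.33% from the dimmest part up. Those of all probes were 15.8%, 16.9%, 17.7% and 17.7%.

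Across the 32 genes with 2 probes, the probes had an r from -0.33 to 0.98 (median 0.43), and 16 pairs were above 0.5. No pair was called in opposite directions. ZNF706 (r 0.98) and ZNF207 (r 0.96) had probes of like brightness. ZNF580 was called by its bright probe (mean 9.57) and not by its dim one (mean 7.48, r 0.12), and likewise ZNF598 (means 10.22 and 7.84, r 0.61). The result for a gene can thus rest on which probe is read.

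Of the 210 genes, 88 with 99 probes lie on chromosome 19, where RefSeq has 246 of its 509 protein-coding ZNF genes. The next chromosomes were 16 with 17 genes and 7 with 16. In miR-182-iso, 23 of the 99 chromosome 19 probes (23.2%) were lower and 5 (5.05%) higher, beside 15.4% and 17.0% of all probes, with a median difference of -0.14 and 24 probes above 0. Of the 143 ZNF probes of other chromosomes, 21 (14.7%) were lower and 14 (9.79%) higher, with a median of 0.00 and 72 above 0.

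In miR-23b the chromosome 19 probes were more often called higher. There 13 (13.1%) were higher and 1 (1.01%) lower (median 0.03), against 6 (4.20%) and 3 (2.10%) of the other ZNF probes (median -0.01), beside 5.91% and 3.00% of all probes. In miR-27a, 17 (17.2%) were higher and 4 (4.04%) lower (median 0.04, 60.6% above 0), against 21 (14.7%) and 14 (9.79%) of the others (median -0.02, 40.6% above 0), beside 15.2% and 15.1%. In miR-17-5p the counts were 5 and 0, against 5 and 6, and in miR-17-5p-iso 6 and 1, against 7 and 4, with medians within 0.02 of 0. Without the miR-182-iso libraries, the chromosome 19 probes called higher were 5 in miR-23b (5.05%) and 5 in miR-27a (5.05%), and those called lower were 11 in miR-17-5p (11.1%) and 8 in miR-17-5p-iso (8.08%). Of the other ZNF probes, 4 (2.80%) were then higher in miR-23b and 7 (4.90%) in miR-27a, and 13 (9.09%) lower in miR-17-5p and 9 (6.29%) in miR-17-5p-iso. Over all probes these shares were 3.15%, 7.04%, 8.59% and 5.26%. The medians on chromosome 19 were then 0.00 in miR-23b, 0.02 in miR-27a and -0.04 in both miR-17-5p forms. In miR-182-iso itself, leaving out replicate 2 left 8 chromosome 19 probes called lower, and the median was -0.11 without replicate 2 and -0.15 without replicate 1.

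Beside 5 of the 8 bright probes, the chromosome 19 members called lower in miR-182-iso included ZNF562 (-0.96), ZNF577 (-0.93), ZNF320 (-0.90), ZNF486 (-0.88), ZNF544 (-0.87) and ZNF529 (-0.77), which are KRAB genes, and also ZNF146 (-0.98), which consists of fingers alone, and ZNF358 (-1.19), for which the miR-23b libraries, where it was high, are among the unrelated ones. Without the 8 bright probes, 18 of 94 chromosome 19 probes were lower and 5 higher, beside 15.4% and 17.0% of all probes, with a median of -0.13. The chromosome 19 probes were dim, with a median level of 8.01, against 8.20 for the other ZNF probes. Chromosomal position was compared as counts and medians only, and whether level, probe design or sequence goes with it was not tested.

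**Figure D4:**
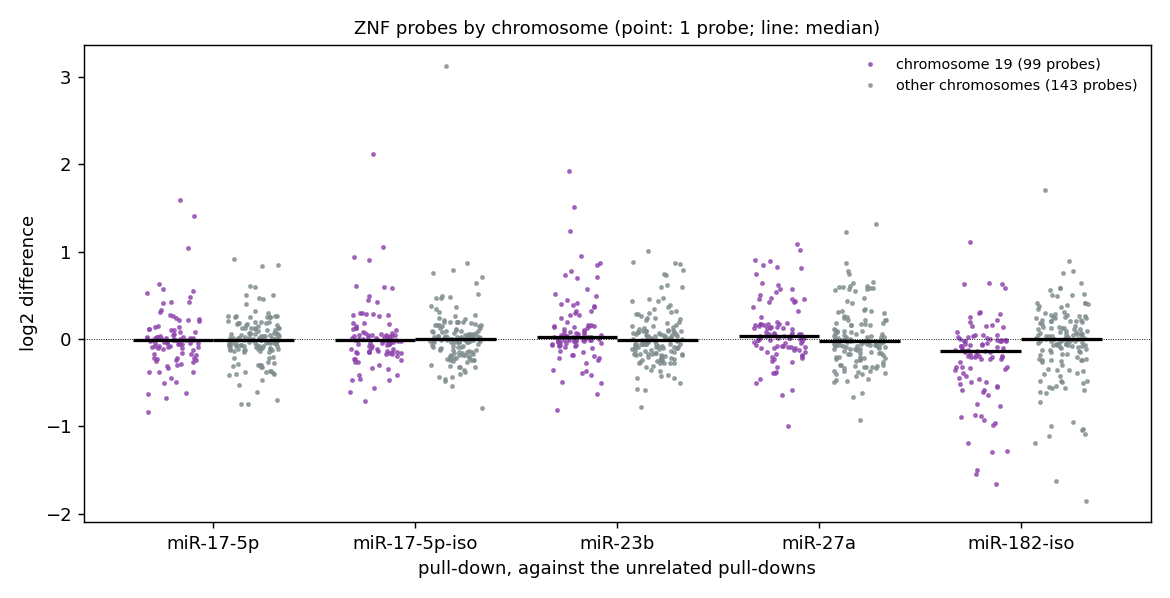
Log2 difference of each ZNF probe (points) in each pull-down against the unrelated pull-downs, for the 99 probes of chromosome 19 (purple) and the 143 of other chromosomes (grey), with the median (line). The medians are within 0.04 of 0 except that of chromosome 19 in miR-182-iso, at -0.14.

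KRAB zinc finger proteins act through TRIM28 and the chromatin enzymes it recruits. Of a list of 35 genes of this co-repressor machinery, 29 were measured by 34 probes. In miR-182-iso, 10 of the 34 probes (29.4%) were higher and 1 (2.94%) lower, beside 17.0% and 15.4% of all probes, with a median of 0.34, beside 0.00. The KRAB co-repressor TRIM28 was 1.83 higher (SE 0.28, limma adjusted p = 0.00129), and CHD4, the helicase of the NuRD complex, was 1.69 and 1.51 higher by its 2 probes (adjusted p = 0.000624 and 0.00101). In miR-27a, 5 (14.7%) were higher and 12 (35.3%) lower, beside 15.2% and 15.1%, with a median of -0.19, beside -0.03. Leaving out the miR-182-iso libraries, these were 4 (11.8%) and 4 (11.8%), beside 7.04% and 6.51%. TRIM28 was lower there (-1.50, SE 0.24, adjusted p = 0.00252), and so were the histone methyltransferase SUV39H1 (-0.96, adjusted p = 0.0025) and CHD4 (-0.92 and -0.75). Without the miR-182-iso libraries, TRIM28 (-1.01, adjusted p = 0.0394) and SUV39H1 (-0.93, adjusted p = 0.0108) were still called, and CHD4 was not (-0.40 and -0.28, adjusted p = 0.216 and 0.38).

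In the other pull-downs few of these genes were called. SUV39H1 was 1.39 higher in miR-17-5p (SE 0.16, limma adjusted p = 0.00104) and 0.64 in miR-17-5p-iso (adjusted p = 0.0348). GATAD2A, a NuRD subunit, was 1.05 higher in miR-23b (adjusted p = 0.00761) and lower in miR-17-5p (-1.01, adjusted p = 0.00312). The calls of SUV39H1 and GATAD2A held without the miR-182-iso libraries. The counts were 1 higher (2.94%) and 3 lower (8.82%) in miR-17-5p, beside 5.34% and 4.51% of all probes, 1 and 1 in miR-17-5p-iso, beside 5.11% and 2.74%, and 1 and 0 in miR-23b, beside 5.91% and 3.00%. In miR-23b the median was -0.21, and -0.11 without the miR-182-iso libraries.

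The related families of zinc finger genes (ZFP, ZSCAN, ZKSCAN, ZBTB, KLF, SP and EGR) had 57 probes for 53 genes. Of these probes, 7 (12.3%) were higher and 17 (29.8%) lower in miR-182-iso, beside 17.0% and 15.4% of all probes, and 20 (35.1%) were higher and 6 (10.5%) lower in miR-27a, beside 15.2% and 15.1%. With the miR-182-iso libraries left out, 6 (10.5%) were higher and 1 (1.75%) lower in miR-27a, beside 7.04% and 6.51%. SP3, a GC-box factor, was lower in miR-182-iso (-1.61, SE 0.20, limma adjusted p = 0.000478) and 1.07 higher in miR-27a (SE 0.17, adjusted p = 0.00246), while ZBTB48, a telomere-binding protein, was 1.19 higher in miR-182-iso (adjusted p = 9.4e-05). That SP3 probe was, without the miR-182-iso libraries, 0.60 higher in miR-27a (adjusted p = 0.0645) and its other probe, 0.80 with them, was 0.58 higher (adjusted p = 0.0149). In miR-23b 5 (8.77%) were higher and 2 (3.51%) lower, beside 5.91% and 3.00%, in miR-17-5p 1 (1.75%) and 4 (7.02%), beside 5.34% and 4.51%, and in miR-17-5p-iso 1 (1.75%) and 2 (3.51%), beside 5.11% and 2.74%.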

How the data were processed

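mRNA captured with 5 biotinylated miRNA duplexes was measured on 1-colour Illumina HT-12 bead arrays, 1 library per array and 13 in all, grouped by the duplex named in the labels. The deposited log2-scale values were made by the authors with lumi (2.2.1), by background adjustment, variance stabilization and robust spline normalization, for probes detected in their mock controls, and they compress differences of dim probes. A second deposited table of signals before normalization has 26 value columns whose names match no sample, and it was not used here. Of 12007 probes, 10444 had 1 gene symbol, 1 several and 1562 none in the platform annotation, and 10442 of the first were matched to a gene of RefSeq (GRCh38.p14).

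Differences were fitted over all probes and libraries with limma 3.58.1 (R 4.3.3; lmFit, eBayes, two-sided), with a mean for each duplex. Each duplex was set against the equally weighted mean of the other miRNA families, with both miR-17-5p forms averaged as 1 family, and miR-17-5p was set against its isomiR and miR-23b against miR-27a. p-values were adjusted by Benjamini and Hochberg over all 12007 probes and called under 0.05. Tables were summarised in Python 3.11.15. The number of arrays limits the precision, and the labels do not say whether cultures were separate, so the spread behind the tests may be technical. The alternatives were quantile normalization, a trended prior, a filter on dim probes, 1 probe per gene, all other pull-downs as comparator, the replicate number as a block, and leaving out each library or both miR-182-iso libraries. Not every alternative applied to each of the 75 calls of named ZNF probes. The filter covered 44 of them, the fit without both miR-182-iso libraries 59 and that against all other pull-downs 62. The fit was tested on simulated data with 200 changed probes of 12007. Differences of 1 were recovered in 70.5% to 85.0% of cases over the 5 comparisons with the unrelated pull-downs, and those of 0.5 in 20.0% to 37.5%. False calls made up 3.51% to 7.24% of the calls at 1 and 0 to 9.33% at 0.5. In some comparisons this passed the share that an adjusted p under 0.05 aims at.

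The members and lists were chosen with earlier results of these data known. ZNF genes named by rule were called ones with the largest differences and no overlap between groups, beside ZNF786. ZNF14, ZNF69, ZNF394, ZNF503, ZNF706, the group of 8 bright probes and the chromosome 19 genes listed as lower were named after their values were seen. Protein features of the ZNF genes were not analysed here.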

Additional observations from a re-analysis of the deposited data

Results flagged for a closer look

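In 3 ZNF probes the effect of the canonical strand differed from that of the isomiR by the direct limma test between both miR-17-5p forms. ZNF581 was 1.00 higher with miR-17-5p (adjusted p = 0.00668), with all 3 libraries above those of miR-17-5p-iso. ZNF518A was lower with miR-17-5p (-2.95, adjusted p = 0.000205) and ZNF70 as well (-0.95, adjusted p = 0.0377), with no overlap in either. The call of ZNF70 was lost with the replicate block (adjusted p = 0.0526) and without any 1 of 9 libraries (adjusted p up to 0.168), while those of ZNF581 and ZNF518A held. ZNF518A is the ZNF gene with the largest difference of any comparison, and its high value was seen with the isomiR alone of the 5 duplexes.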

How the results depend on the processing

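In numbers of ZNF probes called, keeping only probes at or above the median level left 5 higher in miR-17-5p, 8 in miR-17-5p-iso, 12 in miR-23b, 25 in miR-27a, 5 in miR-182-iso and 3 in miR-23b against miR-27a. Lower were then 3 in miR-17-5p-iso, 2 in miR-23b, 6 in miR-27a and 1 in miR-23b against miR-27a, and the medians over the ZNF probes were -0.080, -0.039, 0.060, 0.17, -0.33 and -0.11 in the order of the first list. With all other pull-downs as comparator, 1 was lower in miR-17-5p, and 7 were higher and 1 lower in miR-17-5p-iso. Without both miR-182-iso libraries, 24 were lower in miR-17-5p and 17 in miR-17-5p-iso, 9 were higher in miR-23b and 12 in miR-27a, 8 were lower in miR-27a and 2 in miR-23b against miR-27a. Of chromosome 19 probes, 11 were then lower in miR-17-5p and 8 in miR-17-5p-iso, 5 higher in miR-23b and 5 higher and 2 lower in miR-27a. Quantile normalization gave a median of 0.028 in miR-27a and 2 probes lower in miR-23b against miR-27a.

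The labels number the libraries of each duplex. Same-numbered libraries of different duplexes deviated from their group means with an r of -0.33 to 0.63 (13 of 23 pairs over 0.1), and differently numbered ones with -0.60 to 0.52 (16 of 44). The 13 same-numbered pairs without a miR-17-5p library ran from 0.057 to 0.63, and the 10 with one from -0.33 to 0.33, of which 2 were above 0. Since not all exceeded 0.1, the numbers were not taken to pair the libraries. However, miR-17-5p replicate 2 deviated together with replicate 1 of each other duplex (r of 0.29 to 0.52). Whether libraries share a batch that the numbers do not follow was not tested, and the replicate block would not cover it. With the replicate block, 3 ZNF probes were lower in miR-17-5p-iso and 1 was lower in miR-17-5p against its isomiR, and the other counts stayed within 1.5 times. The block ended 10 of the 75 calls of named probes, among them ZNF70, ZNF77 and ZNF131, and turned none.

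Leaving out 1 library at a time gave 7 to 13 higher and 1 to 14 lower in miR-17-5p (chromosome 19 alone 3 to 7 and 0 to 8), 5 to 14 and 0 to 6 in miR-17-5p-iso (2 to 8 and 0 to 2), 1 to 21 and 0 to 5 in miR-23b (0 to 14 and 0 to 2), 19 to 43 and 8 to 20 in miR-27a (8 to 21 and 1 to 7), and 4 to 23 and 11 to 46 in miR-182-iso (2 to 6 and 8 to 23). It gave 1 to 3 and 1 to 5 in miR-17-5p against its isomiR and 1 to 10 and 0 to 6 in miR-23b against miR-27a. Medians ran from -0.03 to -0.01 in miR-17-5p (chromosome 19 -0.05 to 0.00, other -0.02 to 0.00), -0.01 to 0.00 in miR-17-5p-iso (-0.04 to 0.01 and -0.01 to 0.01), -0.01 to 0.01 in miR-23b (0.02 to 0.06 and -0.053 to -0.014), -0.01 to 0.01 in miR-27a (0.03 to 0.06 and -0.03 to -0.01), -0.06 to -0.04 in miR-182-iso (-0.15 to -0.11 and -0.018 to 0.014), -0.03 to 0.01 in miR-17-5p against its isomiR and -0.040 to -0.0029 in miR-23b against miR-27a. Causes of these shifts were not tested. Of 75 called differences of named ZNF probes, 27 stayed called in every alternative run and 0 changed sign. Dim probes, which most ZNF probes are, show compressed differences, so a lack of calls among them is not read here as a lack of difference. In miR-182-iso, 15.8% of all probes in the dimmest part were called higher, beside 6 of 88 ZNF probes (6.82%). What lies behind these shares was not tested.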
